A study of Mus musculus with 3 samples.

Results

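The zinc finger gene cluster near the end of mouse chromosome 4 was examined by chromatin immunoprecipitation with sequencing in C2C12, a mouse muscle precursor line that is in wide laboratory use. Members were all calls whose midpoint lay between 144 and 148 Mb of chromosome 4 in build mm9, the stretch described as a young, duplicated cluster of KRAB zinc finger genes near Rex2. They comprised 413 of the 59075 calls of the series: 67 of 19549 KAP1 peaks and 346 of 39526 H3K9me3 regions. Both libraries came from cells labelled as proliferating myoblasts of strain C3H, with no genetic change or agent named. One library was made with a homemade rabbit antibody against KAP1 and the other with a commercial antibody against H3K9me3, trimethylated lysine 9 of histone H3. A library made without antibody was not analysed here. With 1 library per antibody there is no replicate, so intervals below cover counting error over calls only, and calls of a library are not independent of their neighbours. The read depth of the libraries is unknown. The lists are of genome positions and hold no expression, so the cell type could not be checked against markers.

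KRAB zinc finger proteins bind DNA through arrays of zinc fingers and bring the corepressor KAP1 (TRIM28) through their KRAB domain. KAP1 in turn brings SETDB1, which makes H3K9me3, and the HP1 proteins that bind this mark. The genes of these proteins lie in clusters that grew by local duplication, and such clusters are known to carry KAP1 and H3K9me3 themselves in several cell types.

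Genes were not placed on mm9 here, so the calls are named by position and none is assigned to a gene. The sequences below show instead how alike the genes near Rex2 are, because a read that matches several copies equally well has no unique position. Whether this run of genes fills the interval of the call lists could not be checked across builds. In the RefSeq gene table of another build, GRCm38.p6, 17 zinc finger genes formed a run around Rex2 with no more than 1 Mb from the start of one to the next. They were Zfp990, Zfp980, Zfp987, Zfp600, Zfp992, Zfp981, Zfp993, Rex2, Zfp978, Zfp991, Zfp988, Zfp982, Zfp985, Zfp979, Zfp534, Zfp984 and Zfp933, in order along the chromosome. The run held 77 genes of any kind, and 52 of them (67.5%) were pseudogenes, against 19.0% of the other genes of the chromosome. The RefSeq promoter table held 13 of the 17 genes, with 16 entries. The 250 bases before the annotated start were compared between all pairs of these genes by local alignment. In 49 of 78 gene pairs (62.8%) at least 100 aligned columns were at least 80% identical. Among 74800 pairs of other genes of the chromosome that start within 3 Mb of each other, 238 pairs (0.318%) were that alike. The run was selected by zinc finger gene names, while those other pairs are of genes of any kind. Other duplicated gene families were not compared separately. The closest pair was Zfp600 and Rex2, whose 250 bases were 99.6% identical, and 11 of the 13 genes were alike to at least 1 other.

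The last 100 bases before the start of Rex2, and their counterparts in 7 other genes, are printed 5′ to 3′ in the direction of the gene. These are all counterparts of 94 bases or more, and those of the other 5 matched genes (Zfp988, Zfp534, Zfp984, Zfp993 and Zfp933) were 8 to 76 bases long. Capitals mark bases that differ from Rex2 in the alignment. Positions are in GRCm38.p6, not in the build of the call lists. Those on the plus strand are Rex2 at chr4:147021750-147021849, Zfp600 at chr4:146156727-146156826, Zfp982 at chr4:147492302-147492400, Zfp985 at chr4:147553179-147553275, Zfp980 at chr4:145670592-145670690, Zfp987 at chr4:146097199-146097295 and Zfp981 at chr4:146514793-146514886. Zfp979 is on the minus strand at chr4:147642515-147642613.
Rex2: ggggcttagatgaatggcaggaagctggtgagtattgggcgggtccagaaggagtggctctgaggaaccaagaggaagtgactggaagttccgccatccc
Zfp600: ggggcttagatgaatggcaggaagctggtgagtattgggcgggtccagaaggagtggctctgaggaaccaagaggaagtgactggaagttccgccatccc
Zfp979: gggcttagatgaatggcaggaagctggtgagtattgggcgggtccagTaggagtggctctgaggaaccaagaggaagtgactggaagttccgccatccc
Zfp982: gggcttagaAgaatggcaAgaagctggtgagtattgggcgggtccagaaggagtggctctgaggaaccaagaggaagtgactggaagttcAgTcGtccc
Zfp985: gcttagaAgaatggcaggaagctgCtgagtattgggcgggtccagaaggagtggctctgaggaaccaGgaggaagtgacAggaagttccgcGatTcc
Zfp980: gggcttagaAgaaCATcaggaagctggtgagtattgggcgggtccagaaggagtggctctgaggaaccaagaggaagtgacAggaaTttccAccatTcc
Zfp987: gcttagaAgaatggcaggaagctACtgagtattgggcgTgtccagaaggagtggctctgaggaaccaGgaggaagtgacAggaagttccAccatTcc
Zfp981: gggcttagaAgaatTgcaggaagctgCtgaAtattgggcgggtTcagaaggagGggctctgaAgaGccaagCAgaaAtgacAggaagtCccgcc
Zfp600 had 0 differences from Rex2 over these bases, Zfp979 had 1, Zfp982 had 5, Zfp985 had 6, Zfp980 and Zfp987 had 8 each and Zfp981 had 13. How reads with several matching positions were treated is not given in the sources used here, and its part in the results below was not tested.

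H3K9me3 was dense in the interval taken as a whole, though not along all of it. The interval held 346 H3K9me3 regions, or 86.5 per Mb, against 15.8 per Mb over the rest of chromosome 4. The ratio of densities was 5.47 (exact conditional 95% interval 4.87 to 6.13). Among the 39 blocks of 4 Mb on the chromosome the interval ranked first, and the next block held 175. Among 670 blocks of all chromosomes it ranked 3, against a median of 53 regions in the others. By covered length the excess was smaller. H3K9me3 regions covered 203.9 kb of the interval (5.10%) and 1.51% of the rest of the chromosome, a ratio of 3.38, and the interval ranked 12 of 670 by this measure.

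KAP1 was also denser in the cluster, though by less. The interval held 67 KAP1 peaks, or 16.8 per Mb, against 7.45 per Mb over the rest of the chromosome, a ratio of 2.25 (exact conditional 95% interval 1.73 to 2.88). It ranked 2 of 39 blocks on the chromosome, after one with 76 peaks, and 12 of 669 over all chromosomes, where the median of the others was 27. KAP1 peaks covered 56.4 kb of the interval (1.41%), against 0.543% of the rest, the highest covered length of the 39 blocks.

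**Figure D1:**
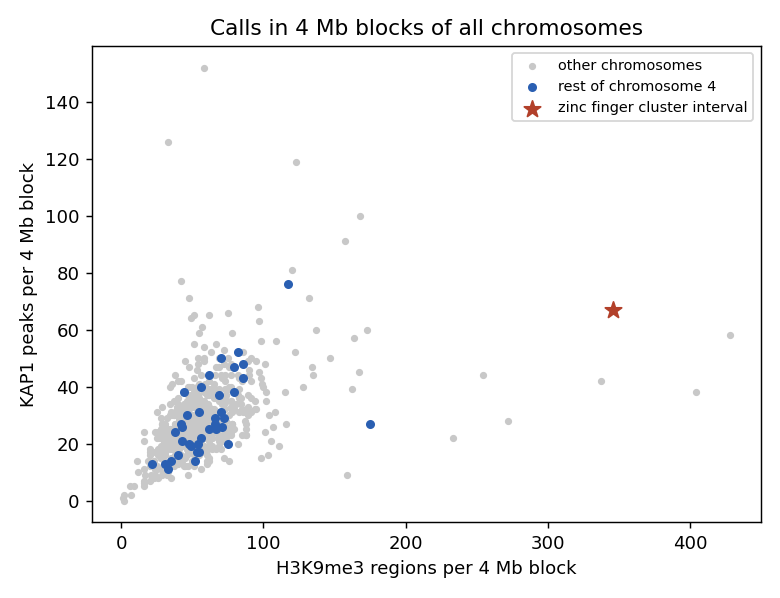
Each point is a 4 Mb block, with its H3K9me3 regions on the x axis and its KAP1 peaks on the y axis. The star is the zinc finger cluster of chromosome 4, with 346 H3K9me3 regions and 67 KAP1 peaks, and blue points are the other blocks of chromosome 4, which reach 175 H3K9me3 regions and 76 KAP1 peaks.

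Within the interval the calls were unevenly spread. In bins of 100 kb, 18 of the 40 bins held 10 or more H3K9me3 regions, against 9 of 1486 bins (0.606%) in the rest of the chromosome. The first and the last of those bins bound a stretch from 145 to 147.3 Mb. It held 325 of the 346 H3K9me3 regions (93.9%) and 56 of the 67 KAP1 peaks (83.6%). There H3K9me3 regions stood at 141.3 per Mb and covered 8.14% of the sequence, and KAP1 peaks stood at 24.3 per Mb. This stretch was chosen from the counts, so its densities are a description. It was not dense throughout, as the bins from 145.1 to 145.2 Mb and from 146.9 to 147 Mb held 2 H3K9me3 regions each. The first 1 Mb of the interval, from 144 to 145 Mb, held 15 H3K9me3 regions and 9 KAP1 peaks, a density of H3K9me3 close to that of the rest of the chromosome (15 against 15.8 per Mb). The last 0.7 Mb, from 147.3 to 148 Mb, held 6 H3K9me3 regions and 2 KAP1 peaks. The dense H3K9me3 thus reached neither border of the interval.

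The bins richest in H3K9me3 were 145.4 to 145.5 Mb with 31 regions, 146.5 to 146.6 Mb with 30 and 146.6 to 146.7 Mb with 24. The highest count of any bin in the rest of the chromosome was 21. By covered length the leading bins were 146.5 to 146.6 Mb with 19.0 kb, 145.4 to 145.5 Mb with 15.9 kb and 146.6 to 146.7 Mb with 13.7 kb. The same 3 bins led by both measures.

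The bins richest in KAP1 were 146.1 to 146.2 Mb with 8 peaks, 146.5 to 146.6 Mb with 7, and then 144.4 to 144.5 Mb and 146.7 to 146.8 Mb with 6 each. By covered length they were 146.1 to 146.2 Mb with 7.61 kb, 146.5 to 146.6 Mb with 6.25 kb and 146.4 to 146.5 Mb with 5.42 kb. The bin from 146.5 to 146.6 Mb was thus among the leading bins of both lists. The neighbouring bin from 146.6 to 146.7 Mb, with 24 H3K9me3 regions, held 0 KAP1 peaks.

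Of the 40 bins, 35 held an H3K9me3 region, 22 held a KAP1 peak, 21 held both and 4 held neither. The longest run of bins without an H3K9me3 region was from 144.5 to 144.7 Mb. For KAP1 it was from 144.5 to 144.8 Mb, and shorter runs without KAP1 lay inside the dense stretch, such as 146.8 to 147 Mb, which held 10 H3K9me3 regions.

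**Figure D2:**
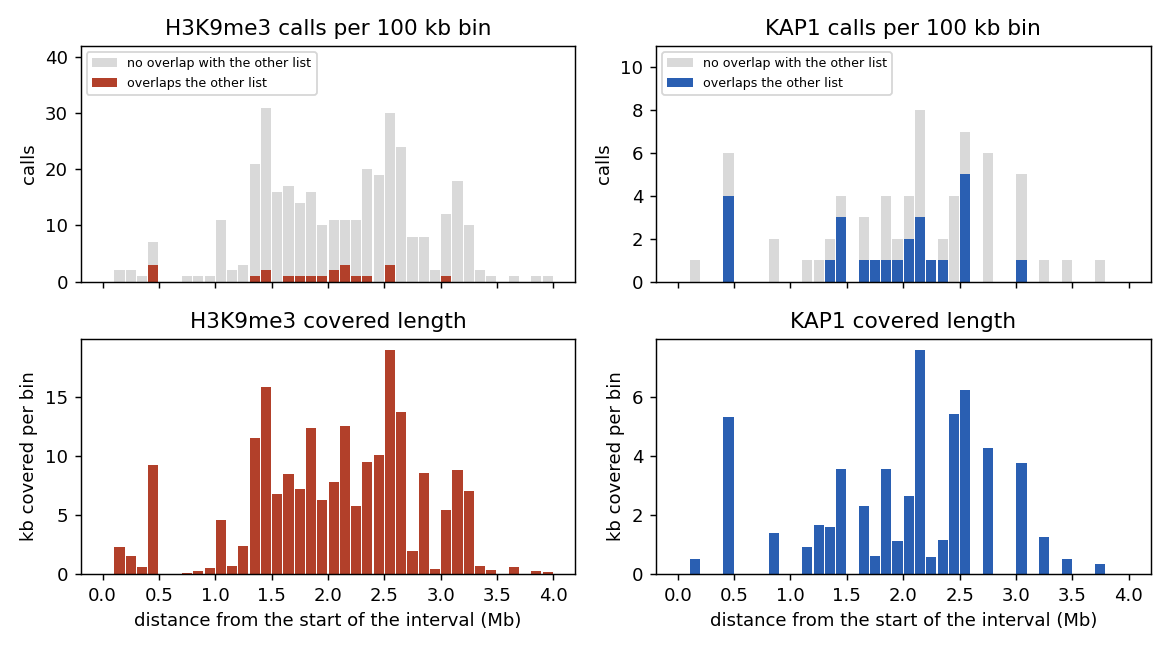
Calls (top) and covered length in kb (bottom) per 100 kb bin for H3K9me3 (left) and KAP1 (right), by distance in Mb from the start of the interval. Dark parts of the upper bars are calls that share at least 1 bp with the other list. H3K9me3 regions occur in every bin from 1.0 to 3.3 Mb, but with 2 to 31 regions per bin. KAP1 has 18 empty bins over the whole interval.

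The H3K9me3 regions of the cluster were short and closely packed. Their median width was 385 bp (quartiles 207 and 746), against 598 bp (317 and 1087) in the rest of the chromosome. The difference of -213 bp (-261 to -163, from the order-statistic 95% interval of the cluster's median alone) shrank to -67.5 bp (-166 to 50) when regions within 1 kb were merged. Regions under 300 bp made up 39.9% of those in the interval and 22.9% of the rest, and regions of 1000 bp and more made up 15.3% and 28.5%. The density ratio to the rest of the chromosome was accordingly higher for narrow regions. It was 9.51-fold (interval 7.83 to 11.5) for regions under 300 bp, 5.04-fold (4.24 to 5.97) for those from 300 to under 1000 bp and 2.94-fold (2.18 to 3.89) for those of 1000 bp and more. The authors' H3K9me3 score, whose meaning is not given and which rose with width over the whole list (Spearman correlation across regions 0.987), had a median of 41 in the interval and 51 in the rest. The highest score was 500 among the 346 regions of the interval and 2267 among the 2349 elsewhere on the chromosome.

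Neighbouring H3K9me3 regions of the interval lay a median of 3.02 kb apart between midpoints, against 29.5 kb in the rest. When regions no more than 10 kb apart were chained, 189 of the 346 (54.6%) fell in 11 chains of 10 or more, and 25 (7.23%) stood alone. In the rest of the chromosome 3.28% were in such chains and 45.5% stood alone. The longest chain ran from 145381600 to 145487195, a length of 105.6 kb with 36 regions and 18.4% of its bases covered. The next was at 147145019 to 147216511 with 21 regions, followed by 146534568 to 146605320 with 28, 146462258 to 146514827 with 11 and 145317250 to 145366093 with 13. The chain from 146534568 was the most fully covered of these 5, at 26.8%, and the one from 146462258 the least, at 6.92%. The longest chain contained 5 KAP1 midpoints and the chain from 146534568 contained 7, while the others contained 1 each.

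A few broad H3K9me3 regions stood among the short ones. Only 6 were 3000 bp or wider. They lay at 144430222 to 144435421 (5200 bp, score 453), 145472983 to 145477509 (4527 bp, score 363), 145875153 to 145878916 (3764 bp, score 349), 146150972 to 146155012 (4041 bp, score 356), 146577059 to 146581747 (4689 bp, score 475) and 146839170 to 146844013 (4844 bp, score 500). From one to the next the distances were 1042, 402, 276, 426 and 262 kb, so the broad regions were not evenly spaced. Of the 6, 5 held a KAP1 peak, and the region at 146577059 held 3. The exception was the region with the highest score, at 146839170, which lay 60.05 kb from the nearest KAP1 peak. The fourth highest score, 439, belonged to a narrower region of 2484 bp at 147199296 to 147201779, with 6.08 kb to the nearest KAP1 peak.

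KAP1 peaks of the cluster had a median score close to that of the rest. The median of the authors' KAP1 score was 100.7 (quartiles 82.4 and 146.3), against 102.5 (82.1 and 152.8) in the rest of the chromosome. The highest was 482 among 67 peaks, against 3129 among 1107 in the rest, and a highest value tends to rise with the number of peaks. The median width was 765 bp (quartiles 588 and 978), against 643 bp (528 and 810). The order-statistic 95% interval of the median in the cluster, 635 to 837 bp, includes the value of the rest. The difference of 122 bp (-8 to 194) became 178 bp (48 to 250) against the 4 Mb on either side. With peaks merged within 1 kb it was 172 bp (89.5 to 308.5). Both of these intervals lie above 0, but each carries the error of the cluster's median alone. The error of the comparison median is left out, so the differences were not tested. The 5 highest scores belonged to peaks at 144430585 to 144432220 (482), 146092125 to 146092937 (413), 145476038 to 145477614 (327), 146582732 to 146583767 (323) and 146577873 to 146579864 (318). All but the peak at 146092125 overlapped an H3K9me3 region. The widest peak, 2821 bp at 146430679 to 146433499, had a score of 131 and lay 8.04 kb from H3K9me3.

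H3K9me3 regions of the cluster held a KAP1 peak less often than those of the rest of the chromosome, while the share of KAP1 peaks on H3K9me3 differed in ways that depended on the setting. Of the 67 KAP1 peaks, 25 shared at least 1 bp with an H3K9me3 region (37.3%, Wilson 95% interval 26.7 to 49.3). The share was 43.2% in the rest of the chromosome and 44.1% in the whole list. The difference from the rest of the chromosome, -5.87 percentage points, had a Newcombe 95% interval of -16.9 to 6.45, which includes 0. This reading depended on the setting. The upper 50% of both lists by score kept 125 of the 346 H3K9me3 regions of the cluster. There the difference was -26.2 points (-39.5 to -8.45), which excludes 0. With the H3K9me3 list left whole, a setting added after the data were seen, the difference was -17.8 points (-33.5 to -0.143). Counting peaks within 1 kb of H3K9me3 turned its direction, to 6.53 points (-5.69 to 18.2), as did comparison with the 4 Mb on either side, at 3.38 points (-13.4 to 19.6). Seen from H3K9me3, 21 of the 346 regions held a KAP1 peak (6.07%, interval 4.004 to 9.10), against 14.7% in the rest of the chromosome and 15.4% in the whole list. This difference of -8.66 points (Newcombe 95% interval -11.2 to -5.33) exceeded counting error. It is not separate from the densities of both lists. The interval held 67 KAP1 peaks for 346 H3K9me3 regions, and the rest of the chromosome 1107 for 2349. H3K9me3 regions with KAP1 were 2.25-fold denser than in the rest of the chromosome (interval 1.38 to 3.50). KAP1 peaks as a whole were also 2.25-fold denser, and H3K9me3 regions without KAP1 6.03-fold (5.34 to 6.78).

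Narrow regions held KAP1 less often than wide ones, both in the interval and in the rest of the chromosome. Under 300 bp, 3 of 138 regions of the interval (2.17%) and 5.38% of the rest held KAP1, a difference of -3.21 points (interval -5.86 to 1.13). From 300 to under 1000 bp, 8 of 155 (5.16%) and 7.71% did, a difference of -2.55 points (-5.59 to 2.35). At 1000 bp and more, 10 of 53 (18.9%) and 34.2% did, a difference of -15.4 points (-24.4 to -2.39). Of these 3 classes the interval of the difference excluded 0 in the widest. At 3000 bp and more the 5 of 6 regions of the cluster compare with 70.2% of 131 in the rest, a difference of 13.1 points (-27.2 to 29.1).

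**Figure D3:**
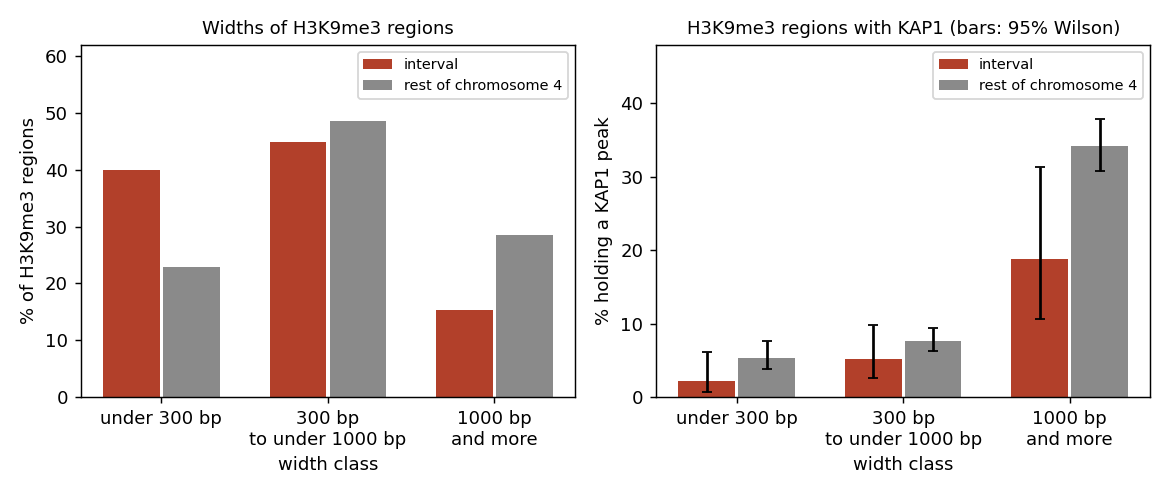
Left, the percentage of H3K9me3 regions in each width class. Right, the percentage of regions of each class that hold a KAP1 peak, with 95% Wilson intervals. Red bars are the 346 regions of the zinc finger cluster and grey bars the 2349 of the rest of chromosome 4. The cluster has more regions under 300 bp (39.9% against 22.9%), and 18.9% of its regions of 1000 bp and more hold KAP1, against 34.2%.

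Most KAP1 peaks of the cluster that lacked H3K9me3 lay near it. The 42 peaks without overlap had a median of 2.97 kb to the nearest H3K9me3 region (quartiles 0.935 and 6.47), against 15.7 kb for the 629 such peaks in the rest of the chromosome. Of the 42, 12 were within 1 kb, 27 within 5 kb and 36 (85.7%) within 10 kb, against 39.6% within 10 kb in the rest. The density of H3K9me3 regions was 5.47 times that of the rest here, and its part in these distances was not tested. The 5 highest-scoring of the 42 were at 146092125 to 146092937 (score 413, 2.97 kb away), 145424958 to 145425567 (313, 0.171 kb), 146705782 to 146706956 (230, 2.05 kb), 144829142 to 144829906 (213, 39.5 kb) and 145212610 to 145214271 (204, 26.3 kb). The last lies in the dense stretch, in a bin with 3 H3K9me3 regions, and the peak at 144829142 lies before it.

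KAP1 peaks with and without H3K9me3 differed less in the cluster than elsewhere in score, and their widths were in the other order. The 25 with H3K9me3 had a median score of 110.1 and the 42 without 97.1. In the rest of the chromosome the medians were 132.3 and 94.0. In the cluster, peaks with H3K9me3 were narrower (median 620 bp) than those without it (802.5 bp), and in the rest of the chromosome they were wider (725 against 588 bp). Whether these differences themselves differ between the cluster and the rest was not tested. Among peaks in the upper 50% of the whole KAP1 list by score, a split made after the data were seen, 13 of 32 in the cluster (40.6%) and 58.4% in the rest overlapped H3K9me3, a difference of -17.8 points (interval -33.5 to -0.143). In the lower 50%, 12 of 35 (34.3%) and 29.8% did, a difference of 4.46 points (-9.53 to 21.4).

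KAP1 peaks no more than 10 kb apart formed 10 groups of 3 or more, and the groups ranged from all peaks on H3K9me3 to none. Only 3 H3K9me3 regions held more than 1 KAP1 peak, all of them broad. The region at 146577059 to 146581747 held the 3 peaks at 146577021 to 146577542 (score 165), 146577873 to 146579864 (318) and 146580041 to 146580765 (92.4). Further peaks flanked it at 146576675 to 146576917 (111) and 146582732 to 146583767 (323), each on an H3K9me3 region of its own. Thus 5 KAP1 peaks stood within 7.09 kb, all with H3K9me3, the group of most peaks in the interval. The region at 145472983 to 145477509 held the peaks at 145473805 to 145474583 (139) and 145476038 to 145477614 (327), and the peak at 145478187 to 145478784 (89.2) lay on the next H3K9me3 region. The region at 144430222 to 144435421, before the dense stretch, held the peaks at 144430585 to 144432220 (482) and 144433399 to 144434521 (188), 2 of the 6 KAP1 peaks in the bin from 144.4 to 144.5 Mb.

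In 2 of the 10 groups no peak overlapped H3K9me3. Between 146743591 and 146748897 lay 4 peaks with scores of 122, 74.5, 70.7 and 83.0, and none of them shared a base with H3K9me3, although an H3K9me3 region of 705 bp lay between the last pair of them. Between 146130668 and 146141691 lay another 3, with scores of 71.95, 76.4 and 131. Of these 7 scores, 5 were under 85, where the lowest score of the whole list is 70. The H3K9me3 regions around the 4 peaks are numbered 12126, 12129 and 12142 in their names, and those around the 3 peaks 11906 and 11914. The numbers between are absent from the list, and where those calls lay is not known.

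Spacing was examined because duplicated units of one length would place calls at a repeated distance. All distances between midpoints up to 500 kb were counted in steps of 5 kb. Beyond 20 kb, the most frequent distance between H3K9me3 regions was 60 to 65 kb, with 290 pairs, 1.37 times the median step. The same pairs counted in the other blocks of chromosome 4, scaled to the same total, gave 262.9 for this distance. Pairs were summed over those blocks before scaling, so blocks with many regions weigh more. The block with 175 regions had a median step of 76 pairs, and the next highest median among them was 16. In 38 other blocks with 20 or more regions, the ratio of the highest to the median step ranged from 1.54 to 7, so the profile of the cluster was flatter than that of any of them. The cluster has many more pairs per step than those blocks, and its most frequent distance changed with the step, to 32 to 34 kb in steps of 2 kb and 20 to 30 kb in steps of 10 kb. Relative to the scaled other blocks a different distance led, a comparison made after the values were seen. At 480 to 485 kb there were 244 pairs of H3K9me3 regions against 161.6, while at 325 to 330 kb there were 158 against 220.1. Which distance stood out thus depended on the measure, and whether any reflects a repeated unit was not tested.

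For KAP1 the most frequent distance was 165 to 170 kb, with 22 pairs against a median step of 7. It arose largely from one pair of groups. Of the 22 pairs, 12 joined the 5 peaks from 146576675 to 146583767 with the 4 peaks from 146743591 to 146748897, and 10 came from elsewhere in the interval. Among 18 other blocks with 20 or more peaks and a median above 0, the ratio of highest to median step ranged from 2 to 14 with a median of 5.25, and the 3.14 of the cluster lay inside that range. The cluster has more pairs per step than those blocks, except the block of 76 peaks, where the median step was 8 and the ratio 2. Whether the distance reflects a repeated unit was not tested. The next distances were 35 to 40 kb and 300 to 305 kb, with 18 pairs each.

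**Figure D4:**
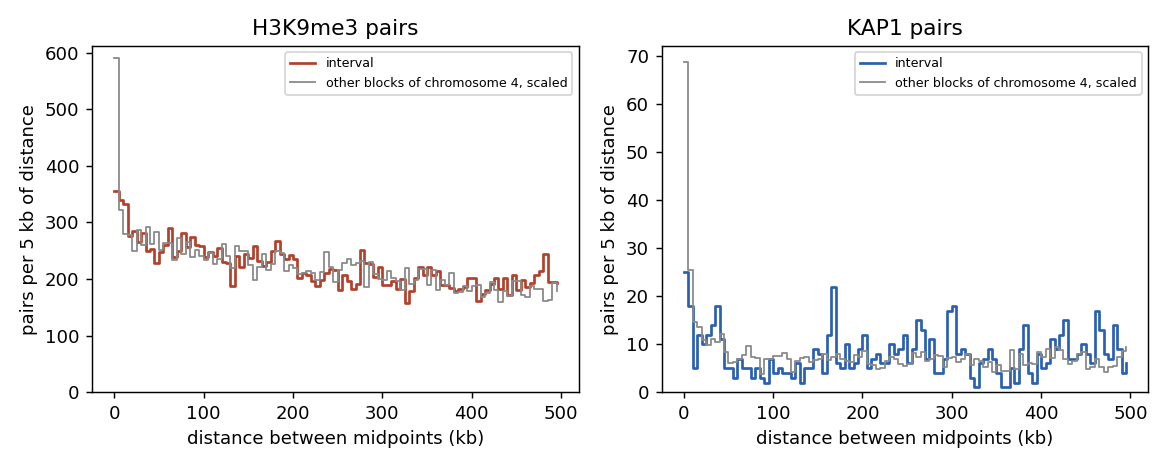
Pairs of calls in the zinc finger cluster by the distance between their midpoints, in steps of 5 kb, for H3K9me3 (left) and KAP1 (right). Grey lines are pairs summed over the other 4 Mb blocks of chromosome 4 and scaled to the same total. Blocks with many calls weigh more in them. The H3K9me3 line lies above the grey one at some distances (244 pairs against 161.6 at 480 to 485 kb) and below it at others (158 against 220.1 at 325 to 330 kb), and the highest KAP1 step beyond 20 kb, at 165 to 170 kb, holds 22 pairs.

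Copies of a unit could also repeat a local pattern, so neighbouring H3K9me3 regions less than 10 kb apart were compared by both widths and by the gap between them. Of 38226 comparisons among 277 neighbour pairs of the cluster, 2 matched to within 5% or 20 bp in all 3 measures. One joined regions of 176 and 194 bp, 6321 bp apart from 145001154, with regions of 181 and 208 bp, 6240 bp apart from 147187299. The other joined regions of 360 and 140 bp, 434 bp apart from 145841406, with regions of 375 and 135 bp, 435 bp apart from 146575884. The other blocks of the chromosome gave 0 matches in 15080 comparisons, a smaller number of comparisons than in the cluster. Comparisons that share a neighbour pair are not independent, and the difference from 2 matches was not tested. For KAP1 there were 0 matches in 406 comparisons in the cluster and 1 in 2548 in the other blocks. A match is a likeness of shape and not evidence that the stretches are copies.

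The numbers in the names of the calls rise along each chromosome, and in this interval many numbers of the H3K9me3 list are absent. From the first to the last H3K9me3 region of the interval the names span 802 numbers, and 346 of them (43.1%, Wilson 95% interval 39.8 to 46.6) carry a region. In the rest of chromosome 4, 85.5% do (84.2 to 86.8), and in the whole list 84.3%. The difference from the rest of the chromosome was -42.4 points (Newcombe 95% interval -46.0 to -38.7). The 456 numbers absent here were 53.5% of all those absent on the chromosome, and up to 19 in a row were absent. Among 654 blocks of 4 Mb with 20 or more regions, 4 had a lower share, none of them on chromosome 4.

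The absent numbers lay in the dense stretch. From 145 to 147.3 Mb, 325 of 774 numbers (41.99%) carry a region, while before it 15 of 16 do and after it 6 of 6. Counted by numbers rather than by listed regions, the interval stood at 200.5 per Mb against 18.5 in the rest, a ratio of 10.8 (interval 10.0 to 11.7). In the KAP1 list the difference was within counting error. There 67 of 126 numbers (53.2%) carry a peak in the interval, 51.5% in the rest of the chromosome and 53.7% in the whole list, a difference of 1.64 points (-7.29 to 10.4). What the absent numbers stood for is not given in the sources used here. Their part in the narrow widths, the low share with KAP1 and the KAP1 peaks without H3K9me3 was not tested.

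**Figure D5:**
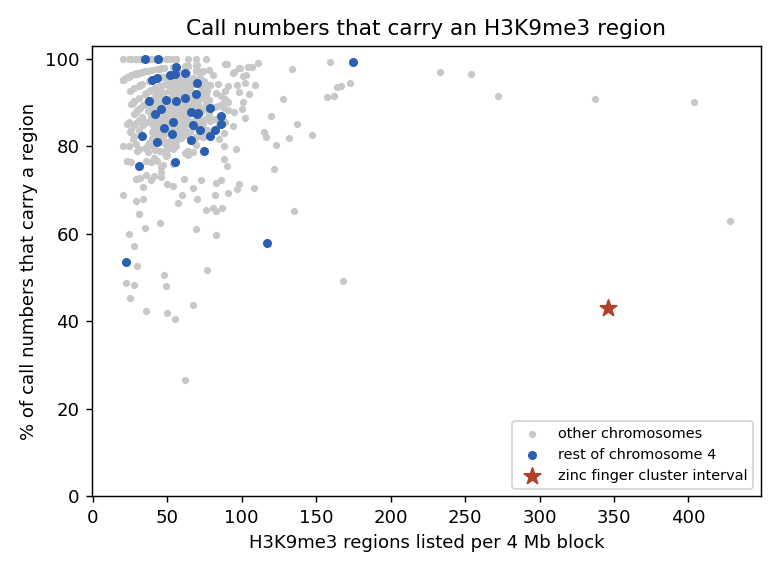
Each point is a 4 Mb block with 20 or more H3K9me3 regions, with the regions listed on the x axis and the percentage of call numbers that carry a region on the y axis. The star is the zinc finger cluster of chromosome 4, with 346 regions and 43.1%, the lowest percentage of the blocks of that chromosome (blue).

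The interval was set beside the 3 other blocks with the most H3K9me3 regions of all blocks. The first, 64 to 68 Mb of chromosome 13, held 428 regions. The others were neighbours on chromosome 12, where 20 to 24 Mb held 404 regions and 16 to 20 Mb held 337. They too had narrow regions, with median widths of 358, 462 and 523 bp. The shares of H3K9me3 regions with KAP1 were 5.14%, 4.95% and 5.64%, and the interval on chromosome 4 differed from each by no more than 1.12 points, within counting error. The intervals of these differences were -2.33 to 4.41 for chromosome 13, -2.18 to 4.61 for 20 to 24 Mb of chromosome 12 and -3.21 to 4.06 for 16 to 20 Mb. The share of KAP1 peaks with H3K9me3 was lower on chromosome 4 than at 16 to 20 Mb on chromosome 12, where 28 of 42 peaks (66.7%) overlapped, a difference of -29.4 points (interval -45.6 to -10.1). From the other 2 blocks it did not differ beyond counting error, at -11.0 points (-27.4 to 6.24) and -15.3 points (-33.6 to 4.17). Call numbers carried a region in 62.8% on chromosome 13 and in 90.2% and 90.8% on chromosome 12, each above the 43.1% of the interval. Thus all 4 of these blocks had a share of H3K9me3 regions with KAP1 below the 15.4% of the whole list, while the percentage of call numbers that carry a region ranged from 43.1% to 90.8% among them. The 3 other blocks were chosen by their counts of H3K9me3 regions, the denominator of that share. They held 58, 38 and 42 KAP1 peaks for 428, 404 and 337 regions. The whole list holds 19549 for 39526, so the choice itself favoured a low share.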

How the data were processed

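Both lists were deposited as BED files for 1 library each. Bowtie2 2.2.1 and build mm9 are named per the submitters' processing notes. The score that the authors deposited with each call was used only within its own list, since what it measures is not given in the sources used here. The same holds for the callers' settings and any control. KAP1 names have the form that MACS writes.

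Starts were counted from 1. Calls belonged to the interval by midpoint, and calls overlapped when they shared at least 1 bp. The rest of chromosome 4 was the 148.5 Mb between the first and last base covered by either list, without the interval. Assembly gaps were not excluded. Density ratios have exact conditional intervals, shares Wilson intervals and differences of shares Newcombe intervals, all at 95%. Medians of score and width were not tested. Named calls are the 5 highest-scoring and widest of each list, the leading bins, the 5 longest chains and the 5 highest-scoring KAP1 peaks without H3K9me3. Other calls were named after their values were seen. The members and lists were chosen with earlier results of these data known. The dense stretch, the split by score, the width classes, the call numbers and the promoter comparison were added after the data were seen. Functions were tested on simulated data. Python 3.11.15, numpy 2.4.6, pandas 2.3.3, scipy 1.17.1, statsmodels 0.14.6 and Biopython 1.88 were used.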

Additional observations from a re-analysis of the deposited data

How the results depend on the processing

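The density ratios of both lists and the ratio of covered shares stayed above 1 under each alternative run. The H3K9me3 density ratio was 6.19 with borders 250 kb inward, 7.21 against the 4 Mb on either side, 4.04 in the upper 50% by score and 4.22 with regions merged within 1 kb. The ratio of covered shares was 3.03 with borders 250 kb outward, 3.82 inward, 3.32 against all other chromosomes, 4.39 against the 4 Mb on either side, 2.91 in the upper 50%, 3.61 without the 1% highest scores, 3.20 without the densest bin and 4.13 merged. The difference in the share of KAP1 peaks with H3K9me3 was -26.2 points (-39.5 to -8.45) in the upper 50% of both lists, -17.8 points in the upper 50% of KAP1 alone (added after the data were seen) and 6.53 points within 1 kb. The difference in the share of H3K9me3 regions with KAP1 was -12.8 points in the upper 50%, and the difference in median H3K9me3 width was -67.5 bp (-166 to 50) after merging, which joins neighbouring short regions. The most frequent H3K9me3 distance began at 32 kb with steps of 2 kb, 20 kb with steps of 10 kb, 20 kb between starts, 180 kb in the upper 50% and 40 kb merged. For KAP1 it began at 464 kb with steps of 2 kb, 20 kb in the upper 50% and 300 kb merged. Bins with an H3K9me3 region numbered 57 at 50 kb and 20 at 200 kb, as fewer or more bins allow. The cause of the other shifts was not tested. No paired analysis was possible because each antibody has only 1 library, which also leaves no replicate to omit. Unknown depth limits what an absent call can show.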
